A study of Mus musculus with 5 samples.

Results

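The second postnatal week of the mouse cerebellum is covered here by the difference between postnatal day 7 (P7) and postnatal day 14 (P14). The members were taken by label: the P7 column and the P14 column, 2 of the 5 columns of the series, with all 897 probes of the table. The other columns hold embryonic day 18 (E18), P21 and P56 and are used to show where the probes stood before and after. Total RNA of cerebellum was hybridised to arrays, and a column averages 2 array experiments. The labels give neither the strain, the sex, the number of animals nor any treatment, so the ages are the only known difference between the groups.

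At P7 the mouse cerebellum is covered by an external layer of dividing granule cell progenitors. During the week that follows these cells leave the cell cycle, migrate inward past the Purkinje cells, extend axons and form synapses with mossy fibres. In the same days Purkinje cells grow their dendrites, and oligodendrocytes begin to wrap axons in myelin.

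All values lie between 0.01 and 100. They were taken to be percentages of the age at which a probe is highest, scaled before the 2 experiments were averaged, and so compare ages within a probe and never 1 probe with the next. Differences are given on the log2 scale of the percent, P14 minus P7, with values under 1% set to 1%, and "rose" and "fell" are kept for changes of 2-fold or more. With a single column per age, no difference has a replicate check and none has a p-value. Of the 897 probes 787 carry a single gene symbol, and they name 773 genes. Of 14 genes fixed as markers of the cerebellum 5 are among them (Gabra6, En1, Pcp2, Calb1 and Neurod1), and because every probe is scaled to itself the values do not test the tissue.

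From P7 to P14, 129 probes rose, which is 14.4% of all probes, and 222 fell, which is 24.7%, while 546 stayed within 2-fold. By gene, 107 of 773 rose (13.8%) and 189 fell (24.5%), and these shares are the background for the counts in gene lists. The largest falls were in genes of cell division. The largest rises included genes of mature granule cells, myelin and astrocytes, Pvalb of Purkinje cells and interneurons, and Hs3st1, which is in no list. Among the probes that fell, 8 fell by 10-fold or more, and among those that rose 10 did so. The median over all probes was -0.58. Throughout, fewer cells of a type and less RNA per cell cannot be told apart, since the tissue was taken in bulk. Median scaling, in which every column is divided by its own median, moved the median to -0.01 and gave 238 rises and 105 falls. Under quantile normalization there were 224 rises and 164 falls. Rises made up 36.8% of the changed probes as deposited, 69.4% under median scaling and 57.7% under quantile normalization. Median scaling moves every probe up by the same amount, so it could only add rises and remove falls. Of the 222 probes that fell, 105 still fell under it and 164 under quantile normalization. Differences of more than 50 points cannot arise from only 1 of the 2 averaged experiments if each was itself bounded by 0 and 100. They were seen in 70 of the 129 rises and 150 of the 222 falls.

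**Figure D1:**
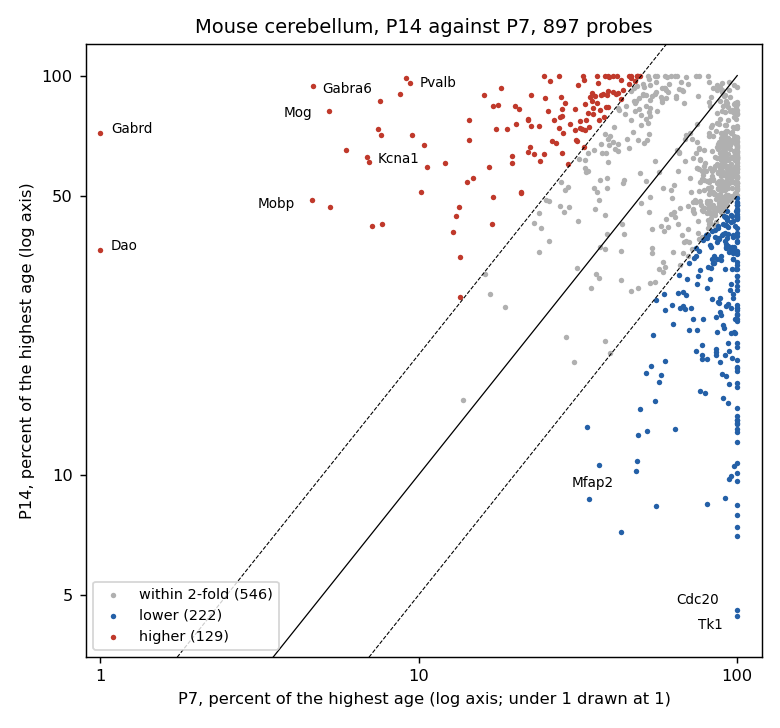
Each point is 1 of the 897 probes, with its percent of the highest age at P7 on the horizontal axis and at P14 on the vertical axis, both logarithmic; the solid line marks equal values and the dashed lines 2-fold. The 129 probes that rose start at a median of 27.5% at P7, and the 222 that fell start at a median of 92.3% and end at 28.6%.

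The genes of the cell cycle fell almost as a block. Over 3 lists (regulators of G1 and S phase, DNA replication with nucleotide synthesis, and mitosis with spindle and kinetochore) 48 of 59 measured genes fell, 10 stayed within 2-fold and 1 rose, with a median of -2.04 against -0.59 for all genes. For 42 of the 59 the highest of the 5 ages was P7, so the fall began from the top of their course. Over all probes 33.6% were highest at P7, and among the 222 probes that fell 52.3% were. Of the 15 regulators of G1 and S phase 12 fell, of 21 replication genes 19, and of 23 mitotic genes 17. Under median scaling these counts were 11, 15 and 14.

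The promoters of 4 of the genes that fell most are shown because a pair of short motifs recurs in genes of this group. The cell cycle genes homology region (CHR, TTTGAA or TTCGAA) and the CCAAT box (CCAAT) are known from promoters of genes expressed in late cell cycle phases. The 200 bases before the annotated start are given from RefSeq, build GRCm38.p6, in the direction of the gene, with matches to either motif on either strand in capitals.
Tk1, chr11:117826015-117826214, minus strand: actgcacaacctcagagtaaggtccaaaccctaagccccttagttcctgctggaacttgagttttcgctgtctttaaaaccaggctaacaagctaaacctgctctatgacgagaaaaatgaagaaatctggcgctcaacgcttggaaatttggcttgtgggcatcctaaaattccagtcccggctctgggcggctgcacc
Cdc20, chr4:118437344-118437543, minus strand: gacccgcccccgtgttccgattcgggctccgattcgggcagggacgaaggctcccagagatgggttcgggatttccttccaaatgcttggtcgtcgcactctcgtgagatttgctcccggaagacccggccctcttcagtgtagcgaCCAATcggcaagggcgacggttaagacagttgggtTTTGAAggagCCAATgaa
Kifc5b, chr17:26916891-26917090, plus strand: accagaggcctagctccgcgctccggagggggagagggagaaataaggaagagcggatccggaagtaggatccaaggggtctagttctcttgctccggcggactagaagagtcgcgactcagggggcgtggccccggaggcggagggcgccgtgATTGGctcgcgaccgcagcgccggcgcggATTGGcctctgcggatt
Mki67, chr7:135716380-135716579, minus strand: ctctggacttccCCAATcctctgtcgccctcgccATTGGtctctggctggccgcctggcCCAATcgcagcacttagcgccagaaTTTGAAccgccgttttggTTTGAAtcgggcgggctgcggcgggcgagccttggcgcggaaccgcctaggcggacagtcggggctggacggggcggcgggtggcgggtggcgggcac
Cdc20 and Mki67 hold both motifs in the stretch shown, while Tk1 holds neither. Kifc5b holds the CCAAT box only, with a CHR match elsewhere in the window from 250 bases before to 50 after its start.

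Over 300 bases, from 250 before to 50 after the start, the CHR was found in 15 of the 19 mitotic genes with a sequence (78.9%), in 6 of 20 replication genes (30.0%), and in 19.4% of all 27025 genes with a sequence. The CCAAT box was found in 78.9% of the mitotic genes, 70.0% of the replication genes and 37.9% of all genes. Both motifs together stood in 73.7% of the mitotic and 25% of the replication windows, against 7.70% of all windows. The E2F motif (TTTCCCGC or TTTCGCGC or TTTGCCGC or TTTGGCGC) was the more frequent in replication genes, with 5 of 20 (25%) against 1 of 19 mitotic genes (5.26%) and 2.32% of all genes. Of the 15 mitotic genes with a CHR 14 fell, with a median of -2.30. Of the 4 without it Ncaph fell, by 3.22 on the log2 scale, and Tubb5, Smc3 and Plk2 stood at -0.54, -0.27 and -0.21. Among replication genes the median was -2.11 with a CHR and -2.29 without. A further 113 genes with a sequence fell but are in none of the 3 lists. Of them 16.8% held the CHR and 38.9% the CCAAT box, near the shares of all genes. The E2F motif was in 6 of these 113 (5.31%) and the cAMP response element TGACGTCA in 5 (4.42%), above the 2.32% and 1.88% of all genes. That element was in 2 mitotic and 1 replication gene. An E-box (CAGCTG or CATCTG) was in 4 mitotic and 2 replication genes (30.4% of all genes), and the full NFI site in none of them (0.0407%). A match of letters is no evidence of binding, and 604 of the 773 measured genes had a sequence. Under 80% of the genes that rose and of the lists of mature neurons had one, so no shares are given for those.

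Among regulators of G1 and S phase, Ccna2, which encodes the cyclin of S phase and G2, fell 13.5-fold, from 100% at P7 to 7.40% at P14. Ccnd2, the D-type cyclin of granule cell progenitors, fell 9.95-fold from 100% to 10.1%, and its relative Ccnd1 fell on both of its probes, from 71.7% to 26.1% and from 90.0% to 23.7%. Cdca7, a chromatin gene induced at the start of S phase, fell 10.4-fold. The kinase genes fell by unequal amounts: Cdk1 from 95.3% to 9.91%, Cdk4 from 87.9% to 26.9% and Cdk2 from 100% to 33.5%. Cks2 and Cks1b, which encode small subunits bound to these kinases, fell 7.12-fold and 5.38-fold, and E2f1, the transcription factor of S phase entry, fell 4.12-fold. The 2 Cdk inhibitors of the list changed in opposite directions. Cdkn1c (p57) went from 43.1% to 7.20%, having stood at 100% at E18, and Cdkn1a (p21) was the 1 gene of the 59 that rose, on both probes, from 48.8% and 46.4% to 100%. Ccne1, the cyclin of the G1 to S transition, did not follow the others and differed by 0.02.

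Among replication genes, Tk1, the salvage enzyme that makes thymidine nucleotides in S phase, fell most of all probes, 22.6-fold from 100% to 4.43%. Both subunits of ribonucleotide reductase fell, Rrm2 7.41-fold and Rrm1 5.58-fold. The genes of the helicase that unwinds DNA at the fork fell together: Mcm3 from 80.2% to 8.47%, Mcm5 from 100% to 19.4%, Mcm7 from 100% to 20.9%, Mcm2 from 98.3% to 22.6% and Mcm4 from 99.7% to 26.1%. Cdc45, the helicase's activating partner, fell 6.04-fold and Mcm10, another loading factor, 7.72-fold. Prim1, the primase subunit, fell 7.33-fold. Falls were smaller in the sliding clamp Pcna (3.56-fold), the ligase Lig1 (3.03-fold), the clamp loader subunit Rfc1 (2.48-fold), the flap nuclease Fen1 (2.47-fold) and the maintenance methyltransferase Dnmt1 (2.52-fold). Pole4 and Ctps stayed within 2-fold, at -0.65 and -0.35.

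Among mitotic genes, Cdc20, the activator of the anaphase-promoting complex, fell 21.8-fold from 100% to 4.59%. Kifc5b, a minus-end kinesin gene, fell 14.3-fold, Mki67, the proliferation marker, 12.6-fold, and Prc1, a midzone crosslinker gene, 10.5-fold. The condensin genes fell, Ncaph from 97.8% to 10.5%, Smc2 from 100% to 13.7% and Smc4 from 100% to 24.5%, while the cohesin gene Smc3 differed by -0.27. Ccnb2, a mitotic cyclin gene, fell 8.29-fold, Racgap1, a cytokinesis gene, 7.49-fold, and Cenpa, the centromeric histone H3 variant, 4.63-fold. Aurka and Incenp, of the Aurora kinase pathways, fell 3.48-fold and 3.18-fold. The 6 genes of the list within 2-fold were Stmn1 and Kif20a (both -0.94), Bub3 (-0.79), Tubb5 (-0.54), Smc3 and Plk2 (-0.21), of which Stmn1 and Tubb5 are also expressed in postmitotic neurons.

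Chromatin genes fell less evenly, with 12 of 25 past 2-fold, none risen and a median of -0.94. Under median scaling 8 fell and 1 rose, and under quantile normalization 10 fell and 1 rose. Those that fell include Hmgb2, a DNA-bending protein of dividing cells (from 100% to 14.7%), Ezh2, the Polycomb methyltransferase (from 92.3% to 17.7%), Sinhcaf, of a Sin3 deacetylase complex (4.14-fold), H2ax (3.87-fold) and the histone chaperone Nap1l1, on both probes (from 74.9% to 30.0% and from 85.5% to 19.9%). The related Hmgb3 fell 2.26-fold and Hmgb1 stood at -0.87. Hdac5, a deacetylase of postmitotic neurons and muscle, was the exception at 0.62.

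Genes of protein synthesis moved close to the median of the whole table, most of them a little below it. All 55 genes in the lists of ribosomal proteins, translation factors and splicing were below their P7 value, 11 of them by 2-fold or more, with a median of -0.74 against -0.59 for all genes. Below the median of all genes were 5 of 5 ribosomal protein, 18 of 22 translation and 23 of 28 splicing genes. Under median scaling 1 of the 55 fell, Hnrnpab, an RNA-binding protein gene that went from 88.1% to 27.7%. Under quantile normalization 4 of the 28 splicing genes fell and none of the ribosomal or translation genes. The 5 ribosomal protein genes lay between -0.83 and -0.63. The spliceosomal genes Snrpg, Snrpe and Snrpb2 fell 2.78-fold, 2.44-fold and 2.24-fold, and the cap-complex helicase gene Eif4a1 and the poly(A)-binding protein gene Pabpc1 fell 2.16-fold each. Of 26 genes of chaperones, proteasome and ubiquitin 3 fell, with a median of -0.66: Psme2 and Psme1, the subunits of the proteasome activator PA28, by 2.24-fold and 2.01-fold, and the chaperonin subunit Cct4 by 2.04-fold. Under median scaling none of the 26 fell and 3 rose.

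**Figure D2:**
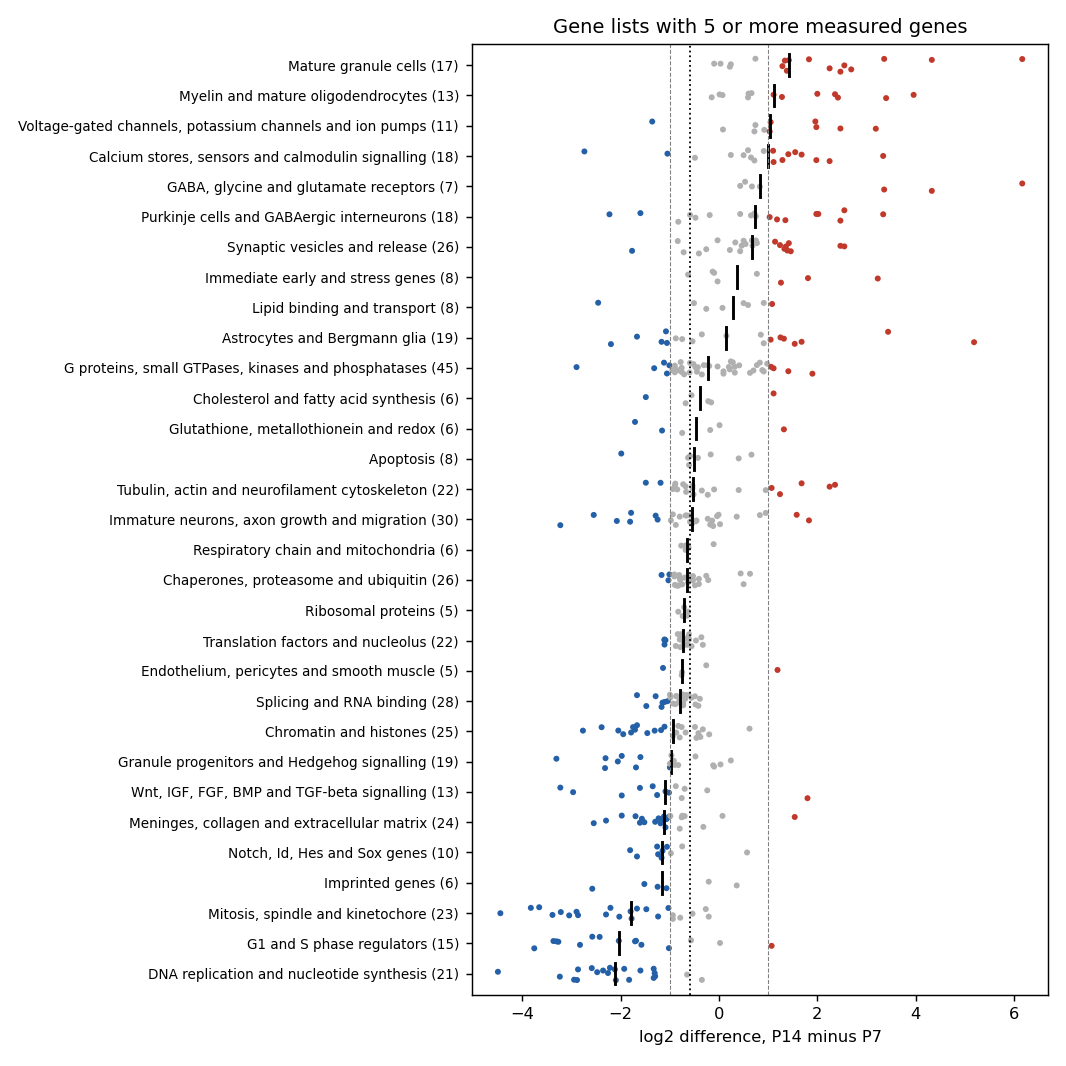
Each point is a measured gene of a list, placed by its log2 difference P14 minus P7, blue where it fell and red where it rose by 2-fold or more; black bars are list medians, the dotted line is the median of all 773 genes (-0.59) and the dashed lines mark 2-fold. The 3 cell cycle lists lie lowest, with medians between -2.12 and -1.80, and the list of mature granule cells lies highest, at 1.42. The vertical scatter within a list has no meaning, and only lists with 5 or more measured genes are drawn.

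Of 19 genes in the list of granule progenitors and Hedgehog signalling 8 fell, 11 stayed within 2-fold and the median was -0.97. Beside Ccnd2 and Ccnd1 these are Mycn, the Hedgehog target that drives progenitor division, from 89.5% to 17.9%, its relative Mycl (2.01-fold), and Cxcr4, the chemokine receptor that keeps progenitors under the meninges, from 79.1% to 16%. Sfrp1, a secreted Wnt antagonist, went from 34.6% at E18 to 100% at P7 and fell to 25.3% at P14. The transcription factor genes Ebf3 and En1 fell 4.16-fold and 3.02-fold. Other transcription factor genes of the list did not reach 2-fold: Nhlh1, Meis1 and Pax6 stood at -0.97, -0.92 and -0.90, and Nfix, Neurod1 and Neurod2 at -0.10, 0.03 and 0.24. Under median scaling 7 of the 19 fell.

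Of 10 genes of the Notch pathway, Id, Hes and Sox families 7 fell, 3 stayed within 2-fold and the median was -1.16; under median scaling 2 fell and 1 rose. The receptors Notch1 and Notch3 fell 3.18-fold and 2.35-fold and Mfng, a glycosyltransferase that modifies Notch, 2.39-fold. Id1 and Id3, inhibitors of neurogenic transcription factors, fell from 86.7% to 38.4% and from 92.4% to 44.3%. Sox11, a factor of immature neurons, went from 93.8% to 26.8%, while Sox4 stood at -0.98 and Sox2, of progenitors and Bergmann glia, at -0.75. Numb, the Notch inhibitor, was the only member with a positive difference, 0.57. Of 13 genes of Wnt, IGF, FGF, BMP and TGF-beta signalling 8 fell and 1 rose. Under median scaling 4 fell, and under quantile normalization 5. Igfbpl1, a gene of immature neurons, went from 100% to 10.7%, Sfrp2 from 33.7% to 13.2%, and the IGF-binding protein genes Igfbp2 and Igfbp4 fell 3.06-fold and 2.13-fold. Htra1, a secreted protease gene, was the one that rose, 3.49-fold from 22.1% to 77.3%.

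Immature neuron genes, with those of axon growth and migration, went both ways: 7 of 30 fell and 2 rose, and their median was -0.56 against -0.59 for all genes. Under median scaling 5 fell and 4 rose. Beside Igfbpl1 and Sox11, the falls were in Vcan, the versican gene, from 100% to 17.0%, in Elavl2, a neuronal RNA-binding protein gene, 4.23-fold, Dpysl3, a collapsin response mediator gene, 3.46-fold, Nrp1, the semaphorin receptor gene, 2.44-fold, and the imprinted gene Nnat, 2.37-fold. Many genes of neurite growth stayed within 2-fold, among them Basp1 (-0.18), Marcksl1 (-0.23), Marcks (-0.54), Stmn1 (-0.94) and Cdk5r1 (-0.59). The 2 that rose were Tiam1, a Rac activator, 3.55-fold, and the phosphatase gene Ptpre, 3-fold. Of 6 imprinted genes 4 fell: Cdkn1c, Mest (2.87-fold), Nnat and Dcn (2.10-fold), while Ndn and Peg3 stood at -0.21 and 0.36. Of these 6, 1 fell under median scaling and 2 under quantile normalization.

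Genes of mature granule cells rose. Of 17 measured 12 rose and none fell, with a median of 1.42, and 13 rose under median scaling. Raising the floor from 1% to the 25th percentile of the table, which lifts low starting points, left 5 rises. Gabrd, the delta subunit of extrasynaptic GABA-A receptors, stood at 0.61% at P7 and 71.8% at P14, a rise of at least 71.8-fold. Gabra6, the alpha-6 subunit found almost only in granule cells, rose 20.2-fold, from 4.67% to 94.2%, close to its P56 value of 99.8%. Its promoter is shown for comparison with those of the division genes and holds a match to each of the same motifs. The same stretch of Mog, the other rise picked by size of change, held neither motif and is not printed.
Gabra6, chr11:42321073-42321272, minus strand: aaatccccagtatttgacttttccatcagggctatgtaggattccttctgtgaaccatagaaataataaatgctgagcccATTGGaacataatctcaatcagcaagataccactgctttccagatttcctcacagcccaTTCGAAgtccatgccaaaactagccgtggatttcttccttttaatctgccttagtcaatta
Grin2c, the NMDA receptor subunit that replaces the juvenile one in granule cells, rose 10.3-fold from 8.71% to 89.7%. Etv1, a transcription factor gene of maturing granule cells, rose 6.43-fold, Kcnj9, an inward rectifier subunit gene, 5.54-fold and Calb2, the calretinin gene, 4.77-fold. Car4 and Cdh15 rose 2.61-fold and 2.53-fold. Rab3a and Kcnd2 stood at 0.22 and 0.74.

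Of 7 genes in the list of GABA, glycine and glutamate receptors, which also holds a synthesising enzyme and an anchoring protein, 3 rose: Gabrd, Gabra6 and Grin2c. The other four lay between 0.43 and 0.83: Gad1, the GABA-synthesising enzyme gene, went from 52.7% to 71.2%, Gphn, the gephyrin gene, stood at 0.53, Glrb, the glycine receptor beta subunit gene, at 0.67 and Gria1, an AMPA receptor subunit gene, at 0.83. Under median scaling all 7 rose.

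Of 11 genes of voltage-gated channels, potassium channels and ion pumps 6 rose and 1 fell. Kcna1, a delayed rectifier gene of axons and basket cell terminals, rose 9.10-fold from 6.86% to 62.4%, and its accessory subunit gene Kcnab1 3.88-fold from 18.9% to 73.4%. Atp1b2, which encodes a beta subunit of the sodium pump in glia, rose 2.07-fold, and Kcnma1, the large-conductance calcium-activated channel gene, 2.04-fold. Scn1a, a sodium channel gene, stood at 0.92. Kcnn1, a small-conductance calcium-activated channel gene, went the other way, from 67.8% to 26.4%, and stood at 76.6% at P21. Under that higher floor 1 of the 11 rose and none fell.

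Of 18 genes of Purkinje cells and GABAergic interneurons 8 rose and 2 fell, with a median of 0.74. Under the higher floor 4 rose and 1 fell, and under median scaling 12 rose and 2 fell. Pvalb, the parvalbumin gene of Purkinje cells and molecular layer interneurons, rose 10.2-fold from 9.41% to 95.6%. Slc1a6, the Purkinje cell glutamate transporter gene, went from 24.7% to 100% and stood lower at P21 (60.9%) and P56 (62.0%). Pcp2, a G protein modulator gene of Purkinje cells, went from 39.2% to 100%, and Nptx1, a neuronal pentraxin gene, rose 5.87-fold. Calb1, the calbindin gene of Purkinje cells, and Slc32a1, the vesicular GABA transporter gene, stood at 0.65 and 0.75. The neuropeptide genes differed: Penk rose 2.26-fold, Npy stood at -0.19 and Sst, the somatostatin gene, fell 4.70-fold from 48.0% to 10.2%. En1, the other gene of the list that fell, and Ebf2 and Ebf1 (-0.83 and -0.48) are transcription factor genes of developing Purkinje cells.

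Of 18 genes of calcium stores, sensors and calmodulin signalling 9 rose and 2 fell, with a median of 1. Both scalings gave 14 rises and 1 fall, and the higher floor 6 rises and 1 fall. Atp2a3, a calcium pump gene of the endoplasmic reticulum, gave unequal values on its 2 probes, from 5.92% to 65.1% and from 18.7% to 26.3%, so only the first rose, and the gene counts among the 9 through the mean of both. Hpcal1 and Vsnl1, genes of neuronal calcium sensors, rose 2.93-fold and 2.44-fold, Camk2b, a subunit of calmodulin kinase II, 2.66-fold and Ryr2, a calcium release channel gene, 2.14-fold. Calm3, a calmodulin gene, fell 2.08-fold. Of the 4 S100 genes of the list, S100b, of astrocytes and Bergmann glia, rose 3.20-fold from 19.6% to 62.9%, S100a11 fell 6.67-fold from 55.6% to 8.33%, and S100a10 and S100a13 stood at -0.49 and 0.59.

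Of 26 genes of synaptic vesicles and release 9 rose and 1 fell, with a median of 0.67. Syt2, the fast calcium sensor of release, rose 5.55-fold from 10.6% to 59.0%. Snap25 and Vamp2, of the membrane fusion complex, rose 2.68-fold and 2.51-fold, Nsf, which takes that complex apart, 2.57-fold, Cplx1, which clamps it, 2.20-fold, and Dnm1 and Pacsin1, of vesicle retrieval, 2.36-fold and 2.75-fold. Syt3 rose 2.62-fold as well, but Syt5 went from 49.6% to 14.6% and Stx1a, the syntaxin 1A gene, stood at -0.84. The proton pump genes Atp6v1a and Atp6v0a2 stood at 0.68 and 0.67, and Atp6v1f at -0.72. Under median scaling 18 of the 26 rose, and under the higher floor 4 rose and none fell.

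**Figure D3:**
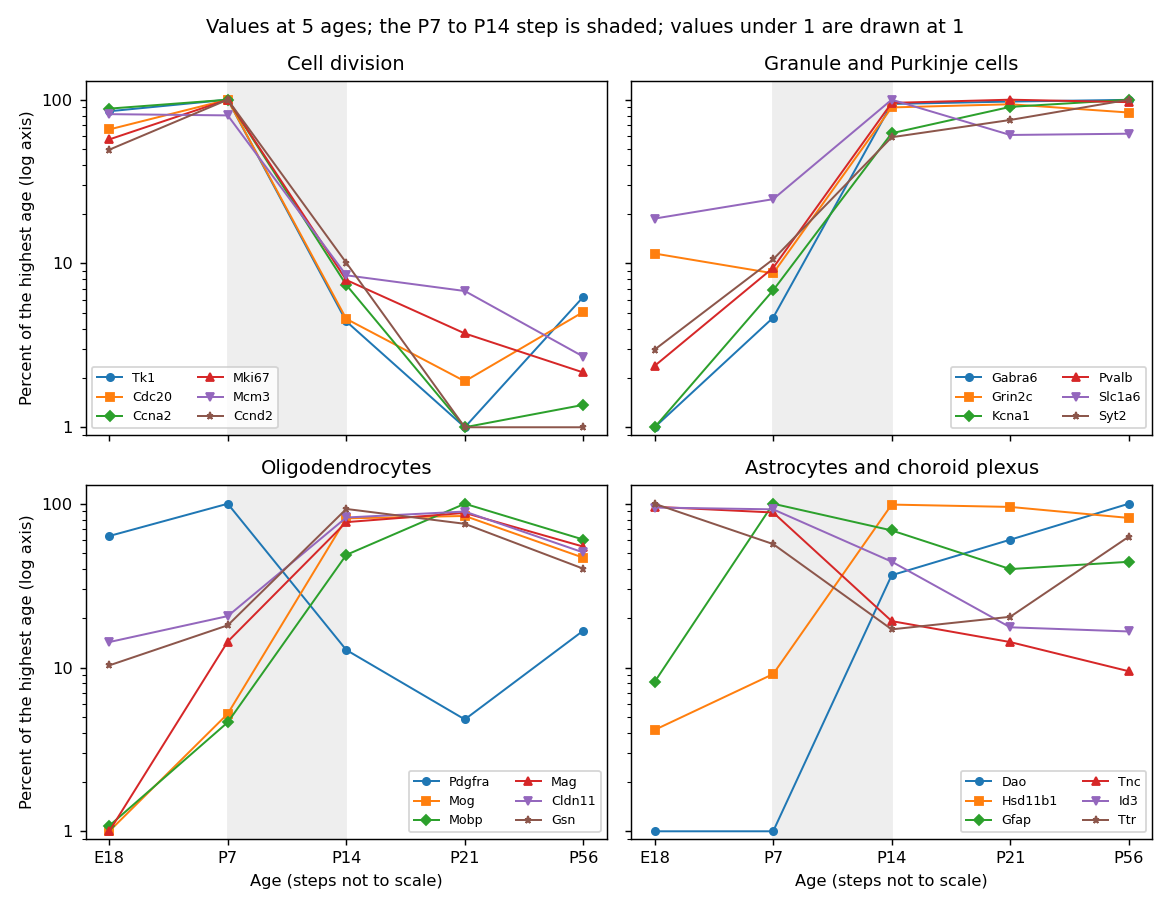
Percent of the highest age, on a log axis, is drawn for named genes at the 5 ages in 4 panels, with the P7 to P14 step shaded and values under 1 drawn at 1; steps are not to scale in days. Division genes drop from 80.2% or more at P7 to between 4.43% and 10.1% at P14, Gabra6 and Grin2c reach their late level at P14, and Pdgfra falls as the myelin genes rise.

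In the oligodendrocyte lineage Pdgfra, the growth factor receptor of progenitors and the only measured gene of its list, fell 7.82-fold, from 100% at P7 to 12.8% at P14. Of 13 genes of myelin and mature oligodendrocytes 7 rose and none fell, with a median of 1.11. Mog, a protein of the outer myelin surface, rose 15.6-fold from 5.22% to 81.4%, Mobp, a protein of compact myelin, 10.5-fold from 4.63% to 48.7%, and Mag, an adhesion protein of the inner wrap, 5.37-fold from 14.4% to 77.2%. Cldn11, the tight junction gene of myelin, rose 4-fold and Gsn, the actin-severing gelsolin gene, 5.14-fold. At P56 Mog stood at 46.8%, Mag at 54.7%, Cldn11 at 50.4% and Gsn at 40.1%. Of these only Gsn was lower than at P14 by 2-fold or more (2.32-fold). The median of the 13 genes went from 57.2% at P14 to 77.8% at P21 and 93.4% at P56. Car2 rose 2.43-fold and Scd1, a fatty acid desaturase gene, 2.16-fold, while Qdpr, Gstp1 and Ptgds, which other cells also express, lay between -0.15 and 0.07.

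Genes of astrocytes and Bergmann glia went both ways, with 7 of 19 risen, 5 fallen and a median of 0.15; under median scaling 9 rose and 2 fell. Under the higher floor 3 rose and 5 fell. Dao, the enzyme that degrades D-serine, stood at 0.02% at both E18 and P7 and at 36.6% at P14, a rise of at least 36.6-fold. Hsd11b1, which regenerates active glucocorticoid, rose 10.8-fold from 9.12% to 98.8%. Gjb6, a gap junction gene of astrocytes, rose 2.91-fold, Mt2, a metallothionein gene, 2.50-fold and Agt, the angiotensinogen gene, 2.38-fold. Those that fell are Tnc, the tenascin C gene of immature glia (from 88.4% to 19.2%), Notch1, Id1, Id3 and Ednrb, an endothelin receptor gene (2.11-fold). The classical markers Gfap and Aqp4 stood within 2-fold, at -0.54 and -0.35, as did Clu (0.91) and Ndrg2 (0.85).

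Genes of meninges, collagen and extracellular matrix were lower at P14: 16 of 24 fell and 1 rose, with a median of -1.13. Under median scaling 5 fell and 1 rose. Serpinh1, the collagen chaperone gene, fell 3.25-fold, Col3a1 2.97-fold, Col1a2 2.34-fold and Col6a2 2.28-fold, while Col1a1 stood at -0.99. Emp1 fell 4.92-fold and Mfap2, of elastic microfibrils, 3.96-fold, from 34.3% to 8.68%. Of the basement membrane genes Nid1 and Col4a1 fell 2.46-fold and 2.20-fold and Col4a2 stood at -0.75. Bmp1, the protease that trims procollagen, was the one that rose, on both probes, from 33.0% to 97.5% and from 27.8% to 78.9%. Both choroid plexus genes fell, Ttr from 56.7% to 17.1% and Igfbp2 from 70.8% to 23.1%, and Ttr stood at 62.9% at P56; under the higher floor neither fall reached 2-fold. Of 5 genes of vessels Slc2a1, the glucose transporter gene, rose 2.28-fold and Col4a1 fell, and Kdr, a VEGF receptor gene, stood at -0.76; under median scaling Col4a1 did not reach 2-fold. Of 4 microglial and immune genes Ifitm2 fell 4.01-fold, while Ctss and Laptm5 stood at 0.02 and -0.44. Ank1, a spectrin-binding protein of red cells that neurons also make, rose 4.77-fold; no globin gene was among the named probes. The part of a changing cell make-up in the differences of neurons and glia was not tested.

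Among immediate early and stress genes 3 of 8 rose and none fell. Nr4a1, an activity-induced nuclear receptor gene, went from 17.8% at E18 to 7.59% at P7 and 71.1% at P14, a rise of 9.37-fold, Egr1 rose 3.51-fold and the clock gene Per1 2.40-fold. Dusp1 stood at 0.77, and Sgk1, Ddit4 and Dusp6 between -0.13 and -0.03.

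Of 22 genes of tubulin, actin and neurofilaments 15 stayed within 2-fold, 5 rose and 2 fell, with a median of -0.53. Under median scaling 6 rose and none fell. Tuba4a, an alpha-tubulin of mature neurons, rose 3.20-fold from 25.5% to 81.5%, and the microtubule-binding protein gene Map4 2.09-fold, while Tubb5 and Actb stood at -0.54 and -0.73. Nefh, the heavy neurofilament gene, stood at 0.95 and Nefm, the medium one, at -0.68. Ezr, the ezrin gene, and Actl6a, of the progenitor form of a chromatin remodelling complex, fell 2.80-fold and 2.28-fold.

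Metabolic lists were small and mixed. Of 6 genes of cholesterol and fatty acid synthesis Srebf1, the regulator of lipid synthesis, fell 2.80-fold, Scd1 rose, and Sqle, Idi1, Fdps and Fdft1 lay between -0.68 and -0.16. Pfkm and Pfkl, isoforms of phosphofructokinase, stood at 0.75 and -0.53. Lpl, the lipoprotein lipase gene, fell 5.50-fold from 100% to 18.2%, and Abca2, a lipid transporter gene of myelinating cells, rose 2.12-fold. Prdx4 and Txnrd1, of the redox list, fell 3.28-fold and 2.24-fold. None of 6 mitochondrial genes passed 2-fold, and their median was -0.65. Of 4 genes of hormone and retinoid response Aldh1a1, a retinaldehyde dehydrogenase gene, rose 3.5-fold beside Hsd11b1, while Ttr fell and Nr2f1, a nuclear receptor gene, stood at -0.97. Of 8 apoptosis genes Bok, a relative of Bax, fell 3.97-fold from 100% to 25.2%, and the other seven lay between -0.63 and 0.66.

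Of 45 genes of G proteins, small GTPases, kinases and phosphatases 4 rose and 5 fell, with a median of -0.23; under median scaling 11 rose and 1 fell. Pip5k1b, a phosphoinositide kinase gene, rose 3.73-fold, Camk2b 2.66-fold, the protein kinase C gene Prkcz 2.16-fold and Gnb5, a G protein beta subunit gene of neurons, 2.08-fold. Beside Racgap1, the falls were small: Rasl2-9 2.50-fold, Gng5-ps 2.18-fold, Ptpn5, a striatum-enriched phosphatase gene, 2.09-fold and Limk1, a kinase of actin regulators, 2.02-fold. Rasl2-9 and Gng5-ps closely resemble other genes, so their probes may read those too.

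The lists hold 436 of the 773 genes. Of the 337 in no list 46 rose and 57 fell. The largest rise among them was in Hs3st1, a heparan sulfate sulfotransferase gene, 11.5-fold from 7.56% to 86.6%. St8sia5, which adds sialic acid to gangliosides, rose 8.72-fold from 6.96% to 60.7%, and Gpd1, a glycerol phosphate dehydrogenase gene, 7.43-fold. Gadd45b, a stress and activity-induced gene, rose 5.59-fold from 16% to 89.6%, Gas7, a gene of neurite growth, 5-fold and Sowaha 4.98-fold. Zdhhc14, a palmitoyltransferase gene, rose 4.20-fold and Jph3, which ties the endoplasmic reticulum to the cell membrane, 3.74-fold. The largest fall among them was in Tead2, the transcription factor partner of Yap, 9.66-fold from 94.2% to 9.76%. Timeless, of the replication fork, fell 6.18-fold and Dtl, of the replication-coupled ubiquitin ligase, 4.37-fold, so division genes also lie outside the lists. Anp32a fell 5.41-fold, from 100% to 18.5%, and stood at 50.5% at P21. Cd24a, a surface protein of migrating neurons, fell 4.13-fold, Anxa2 4.02-fold and Sstr2, a somatostatin receptor gene, 3.43-fold. Of the 94 probes with no symbol and the 16 with several, 20 rose and 29 fell.

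The step was also the largest of the 4 steps between neighbouring ages for most probes that differ between the first and the last age. From E18 to P56, 203 probes rose (22.6%) and 471 fell (52.5%), and for 151 of the 203 (74.4%) and 321 of the 471 (68.2%) the largest change in that direction lay between P7 and P14. The median of all probes went from 84.5% at E18 to 82.8% at P7, 55.5% at P14, 42.2% at P21 and 42% at P56. The counts of largest steps were made on the deposited values, so they include this shift, and were not repeated under median scaling. Neither E18 nor P56 enters the difference between P7 and P14, although all ages share each probe's scale. Of the 129 probes that rose from P7 to P14, 113 (87.6%) were higher at P56 than at E18 by 2-fold or more. Of the other rises 1 was lower by that much and 15 were within 2-fold. Of the 222 that fell, 211 (95%) were lower at P56 than at E18 by 2-fold or more. The other 11 falls were within 2-fold, and none was higher by 2-fold. Among the 113 rises and 211 falls the step held a median of 71.9% and 74.0% of the log2 difference between E18 and P56. These shares are a description only, since the probes were chosen for a large step.

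The 129 probes that rose had medians of 21.3% at E18, 27.5% at P7, 78.9% at P14, 85.3% at P21 and 91.1% at P56. The 222 that fell had medians of 92.0%, 92.3%, 28.6%, 20.3% and 20%. Between P21 and P56, 126 of the 129 and 202 of the 222 stayed within 2-fold; over all probes 2.68% rose and 2.23% fell in that step. The highest age was P14 for 32 of the 129, P21 for 41 and P56 for 56. The lowest age was P14 for 22 of the 222, P21 for 96 and P56 for 104.

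**Figure D4:**
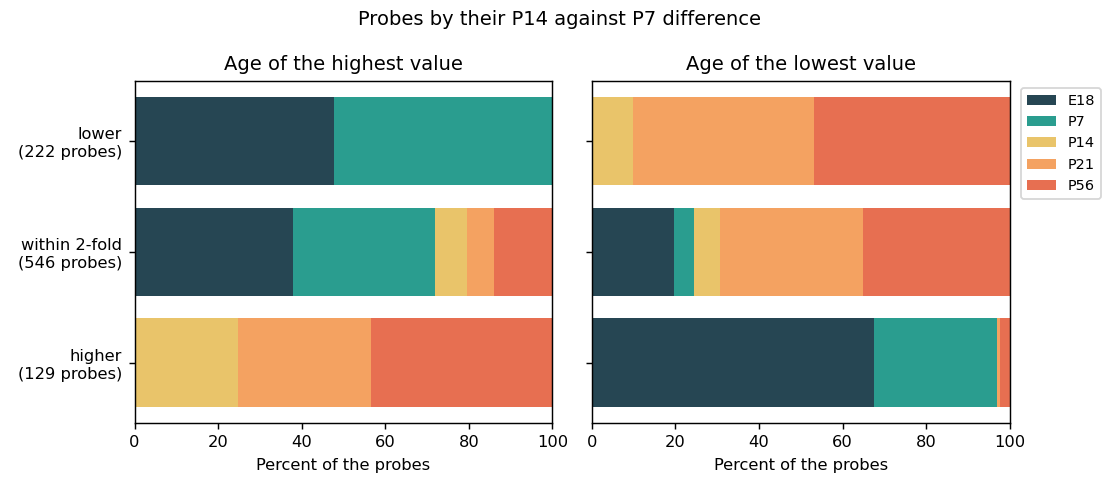
Bars give the percent of probes whose highest value (left) or lowest value (right) lies at each of the 5 ages, for the 222 probes that fell, the 546 within 2-fold and the 129 that rose between P7 and P14. Of the probes that rose 24.8% were highest at P14. The choice of probes by their P7 and P14 values shapes these bars: it favours P14 as the highest age of a probe that rose and bars P7, and the reverse for the falls, so the groups are drawn as a description.

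A few of the probes that rose fell again by 2-fold or more, 7 of them between P14 and P56 and 3 between P14 and P21. Adam19, a metalloprotease gene, went from 48.4% at P7 to 100% at P14 and 20.7% at P56. Cdkn1a, which halts the cell cycle, reached 100% at P14 on both probes and stood at 31.8% and 30.7% at P56. Ltbp2, a matrix protein gene, went from 36.4% to 100% and stood at 35.5% at P21 and 39.0% at P56, and Ackr1, a chemokine-binding receptor gene, from 27.5% to 100% and 45.1% at P56. The clock gene Cry1 went from 48.4% to 100% and 47.4% at P21. Tubg2, a gamma-tubulin gene, moved back and forth, with 34.1% at P7, 80.7% at P14, 17.5% at P21 and 69.2% at P56. Other genes dipped at P7 before they rose: Slc2a1 stood at 63.5% at E18, 28.1% at P7 and 64.0% at P14, and Vamp2 at 37.9%, 17.0% and 42.5%. Of the genes that fell, Ttr and S100a11 were higher again at P56, at 62.9% and 26.2%. Slc29a1, a nucleoside transporter gene, had its high value at P7 alone, with 28.0% at E18, 100% at P7, 34.2% at P14 and 7.38% at P21.

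As the only measure of noise in the table, 14 genes have 2 probes. Their P14 minus P7 differences were apart by a median of 0.38, 12 of the 14 pairs fell on the same side of the 2-fold rule and 13 had the same sign. The exceptions were Atp2a3, apart by 2.97, Hes6, with -0.97 and -1.33, and Gnai1, with 0.88 and -0.24. These pairs share their RNA and arrays, and say nothing of the spread between animals or between arrays.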

How the data were processed

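The deposited values are means of 2 array experiments per age on total RNA, per the labels. They were read as percent, since the deposited numbers end at 100 and many, though not most, probes stand at exactly 100 at some age; the labels do not state this scale. Scanner, background correction, normalization and genome build: not given in the sources used here, nor is whether the 2 experiments came from separate animals. The number of arrays limits the precision. Symbols came from the platform's annotation, and 784 of 787 were found by gene identifier in RefSeq GRCm38.p6, with 0 changed.

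Values under 1% (2 at P7, 0 at P14) were set to 1%, so a fold against them is a lower bound. The comparison is log2 P14 minus P7, called at 2-fold. For the lists, a gene with 2 probes took the mean of their log2 differences. The 38 lists, the comparison and the motifs were chosen with earlier results of these data known. After the values were seen, 16 entries were removed that name patterns had wrongly matched or that another list held or fitted better. Lists overlap. Named genes are the 15 largest changes each way at or above 1% at both ages, bounds, list members, genes with 2 probes, genes whose change turned back and the larger changes of genes in no list; some of these were left out for length. Promoters are the first RefSeq window of each gene, 300 bases; those shown are from genes with 1 window. The calculation (Python 3.11.15, numpy 2.4.6, pandas 2.3.3) was tested on simulated data. Alternatives were other floors, a pseudocount, 2 scalings between columns, other thresholds, filters, 1 value per gene and the lists as first matched.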

Additional observations from a re-analysis of the deposited data

How the results depend on the processing

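No paired analysis was possible because each age has 1 column, and no replicate could be left out. Other floors, the pseudocount, both filters on low values and 1 value per gene kept the 129 rises and 222 falls within 1.5 times. Median scaling gave 238 rises and 105 falls. For 231 of these rises and 85 of these falls the probe also differed by 2-fold or more between E18 and P56 in that direction. Quantile normalization gave 224 rises. A threshold of 3-fold gave 53 rises and 104 falls, of which 52 and 95 differed between E18 and P56 in that direction by 3-fold or more. At 1.5-fold there were 213 and 447, and more than 50 points gave 70 rises. The median of -0.58 became -0.01 under median scaling and -0.13 under quantile normalization. The lists as first matched, an alternative chosen after seeing the data, gave 13 rises in place of 12 in mature granule cells, 2 falls in place of 1 in synaptic vesicles and release, and 2 rises in place of 1 in Wnt, IGF, FGF, BMP and TGF-beta signalling; other list counts stayed within 1.5 times.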
